A study of Neurospora crassa with 4 samples.

Results

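The histone genes of *Neurospora crassa* were examined in ΔCFIm and control cultures by 3′ End Sequencing, a method that reads the last bases of an mRNA ahead of the poly(A) tail. The 7 genes were chosen by name: *hH3*, *hH4-1*, *hH4-2*, *hH2A*, *hH2B*, the variant *hH2Az*, and the linker histone gene *hH1*. All 7 have a value among the 7793 genes of the deposited values, and 6 of them were tested, as were 6949 genes overall; a gene was tested if its normalized counts averaged 10 or more in the 4 libraries. The *hH2Az* gene fell short of this. The ΔCFIm strain carries deletions of *cpsf5* and *cpsf6*, each replaced by a hygromycin resistance cassette, and the control strain carries both genes intact. Both strains carry a *frq* clock box luciferase reporter with a *barR* marker at the *csr-1* locus. The control label gives mating type A, and the ΔCFIm label gives none. There were 2 biological replicates of each genotype, each of 1 strain, grown in constant light at 25°C on cellophane-covered agar (glucose at 0.25% and arginine at 0.17%, w/v) and harvested after 72 hours. The comparison asks how the loss of CFIm, a complex that places the poly(A) tail, bears on the level of each mRNA.

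Histones package DNA. H3 and H4 form the tetramer at the center of the nucleosome, dimers of H2A and H2B join it on either side, and H1 binds the linker DNA between nucleosomes. The variant H2A.Z takes the place of H2A in some nucleosomes. In animals, most histone mRNAs made during S phase end in a stem-loop without a poly(A) tail, whereas fungal histone mRNAs are polyadenylated, so a method that starts from the poly(A) tail can count them. CFIm (Cleavage Factor I, mammalian) binds nascent mRNAs near the cleavage site and helps to place the poly(A) tail.

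Between 5572762 and 6053869 reads per library fell on the 7793 genes with a deposited value. The authors scaled every library to the same total, so that 1 read equals 0.967 to 1.05 normalized counts. Both deleted genes were lower in ΔCFIm. The *cpsf5* gene (NCU09014) had 3 and 0 reads in ΔCFIm and 204 and 199 in controls, at least 68.2-fold lower in ΔCFIm when the ΔCFIm libraries were set to a floor of 3 reads per library. The *cpsf6* gene (NCU02152) had 25.7 and 26.0 normalized counts in ΔCFIm, against 141 and 160 in controls, so that 17.2% of the control mean remained, and whether these reads lie outside the deleted part was not tested. The mating-type gene *matA-1* (NCU01958) had 0 reads in both ΔCFIm libraries and 145 and 166 in the controls. A difference in mating type between the strains therefore cannot be told apart from the loss of CFIm in any value given here. The cultures held mycelium and conidia together, and fewer cells of one kind and less RNA per cell cannot be told apart.

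No histone gene passed the threshold between ΔCFIm and control. Of the 6 tested, 0 had an adjusted p under 0.05 (limma with Benjamini-Hochberg adjustment over the 6949 tested genes), and 0 had an unadjusted p under 0.05 by limma, by edgeR or by DESeq2. Over all tested genes, the unadjusted p was under 0.05 for 22.5% by limma (1563 genes), 23.7% by edgeR and 17.8% by DESeq2. After adjustment over all tested genes, 8% passed the limma threshold (556 genes), with 4.62% of tested genes higher and 3.38% lower in ΔCFIm. The *hH3* gene had a log2 fold change of 0.26, and the other 5 had log2 fold changes between -0.35 (*hH2A*) and -0.06 (*hH4-2*). The median was -0.23 for the 6 histone genes and -0.01 for all tested genes. The 95% intervals from limma all included no change. Their lowest limit was a fold of 0.578 (*hH2A*) and their highest a fold of 1.59 (*hH3*), so the 2 limits come from different genes. With 2 libraries per genotype, the data do not decide between no change and a difference within a gene's own interval.

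**Figure D1:**
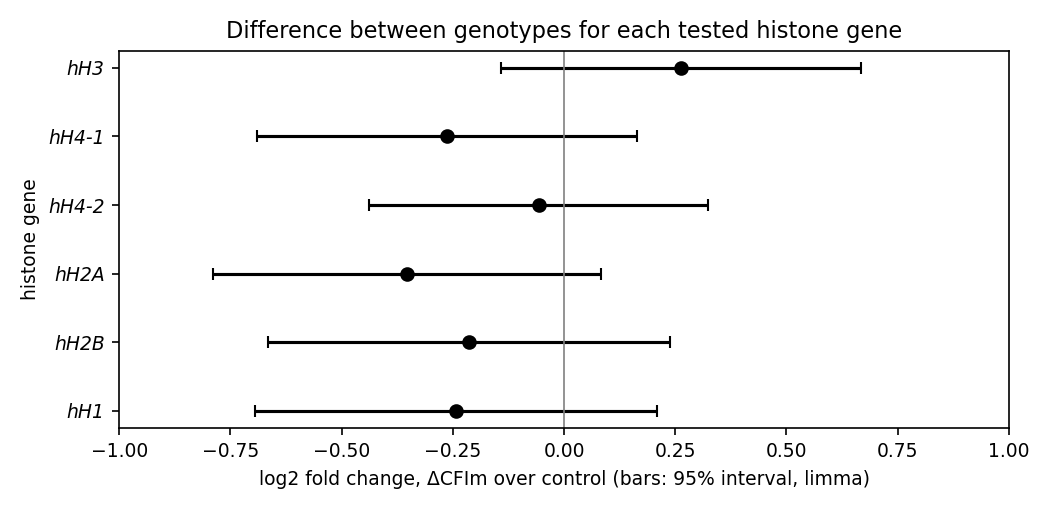
Log2 fold change of ΔCFIm over control for each of the 6 tested histone genes (points) with the 95% interval from limma (bars), from 2 libraries per genotype. Every interval crosses 0, with *hH3* on the right at 0.26 and *hH2A* farthest to the left at -0.35.

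The histone mRNAs were abundant. By mean over the 4 libraries, *hH2B* ranked 54 among the 7793 genes, *hH3* 72, *hH4-1* 83, *hH2A* 87, *hH1* 192 and *hH4-2* 275. Each transcript end gives 1 read in this method, so levels were not divided by gene length. In ΔCFIm the order by mean was *hH3*, *hH2B*, *hH4-1*, *hH2A*, *hH1*, *hH4-2*, and in controls it was *hH2B*, *hH4-1*, *hH2A*, *hH3*, *hH1*, *hH4-2*. In ΔCFIm, *hH3* and *hH2B* differed by less than their spread, as did *hH4-1* and *hH2A*, and *hH2B* exceeded *hH3* in replicate 1 and *hH3* exceeded *hH2B* in replicate 2. In controls, *hH2B* was the highest of the 7 in both libraries and the next 3 genes changed places between replicates. The *hH1* gene was above *hH4-2* in all 4 libraries.

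Of the genes for the H3–H4 tetramer, *hH3* was the one whose values were higher in ΔCFIm than in controls without overlap. The *hH3* gene (NCU01635, NC12 linkage group II, 2874241 to 2875647) had 12040 and 10390 normalized counts in replicates 1 and 2 of ΔCFIm, against 9581 and 9064 in those of the control. Its means were 11215 ± 1167 in ΔCFIm and 9323 ± 365 in controls (SD, n = 2 each), a fold of 1.20 with a 95% interval from 0.906 to 1.59 (log2 fold change 0.26, limma adjusted p = 0.446, SE 0.19). Values without overlap in this direction are common with 2 libraries per genotype: they were found for 25.9% of all tested genes, and for 52.4% in either direction.

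The *hH4-1* gene (NCU01634, linkage group II, 2877350 to 2878740) encodes histone H4 and is the annotated neighbour of *hH3*, with a gap of 1702 bp between them. It had 9502 and 7343 normalized counts in ΔCFIm, against 9409 and 10687 in controls. The genotypes overlapped, because ΔCFIm replicate 1 lay just above control replicate 1, and the log2 fold change was -0.26 (limma adjusted p = 0.475, SE 0.20).

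The *hH4-2* gene (NCU00212, linkage group III, 3024058 to 3025897), also for histone H4, had 3418 and 2805 normalized counts in ΔCFIm, against 3242 and 3201 in controls. The ΔCFIm libraries lay on either side of both controls, and the log2 fold change of -0.06 was smaller than its SE of 0.18 (adjusted p = 0.888 from limma). The gene took 26.5% (95% exact Clopper-Pearson interval 25.7% to 27.2%) and 27.6% (26.8% to 28.5%) of the reads on the H4 genes in ΔCFIm, against 25.6% (24.8% to 26.4%) and 23.0% (22.4% to 23.7%) in controls. These intervals cover counting error only and leave out variation between cultures. They treat each read as independent, and PCR copies are not independent molecules, so even the counting error may be understated. The share was higher in both ΔCFIm libraries than in both controls, but the control libraries differed from each other by more than ΔCFIm replicate 1 differed from control replicate 1.

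Among the genes for the H2A–H2B dimer, *hH2A* had the largest difference of the 6. The *hH2A* gene (NCU02437, linkage group VII, 2487192 to 2488439) had 9182 and 6653 normalized counts in ΔCFIm, against 9894 and 10079 in controls. Both ΔCFIm values lay below both control values, as for 26.5% of all tested genes. Its means were 7917 ± 1788 in ΔCFIm and 9986 ± 130 in controls (SD, n = 2 each), a fold of 0.783 with an interval from 0.578 to 1.06 (log2 fold change -0.35, limma adjusted p = 0.331, SE 0.20). Most of the difference came from ΔCFIm replicate 2: without it the log2 fold change was -0.12, and without ΔCFIm replicate 1 it was -0.59.

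The *hH2B* gene (NCU02435, linkage group VII, 2490608 to 2492335) had 12669 and 9220 normalized counts in ΔCFIm, against 13398 and 11738 in controls. ΔCFIm replicate 1 lay between the controls and replicate 2 below them. The log2 fold change was -0.21 (limma adjusted p = 0.600, SE 0.21), and it was 0.01 without ΔCFIm replicate 2.

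The linker histone gene *hH1* (NCU06863, linkage group VII, 546038 to 548166) had 5223 and 3415 normalized counts in ΔCFIm, against 5074 and 4925 in controls. Replicate 1 of ΔCFIm was above both controls and replicate 2 below both, on the log2 scale the widest gap between duplicate libraries among the 6 genes (a log2 ratio of replicate 2 to replicate 1 of -0.61). The log2 fold change was -0.24 (limma adjusted p = 0.542, SE 0.21). Without ΔCFIm replicate 2 it was 0.06, and without ΔCFIm replicate 1 it was -0.55.

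**Figure D2:**
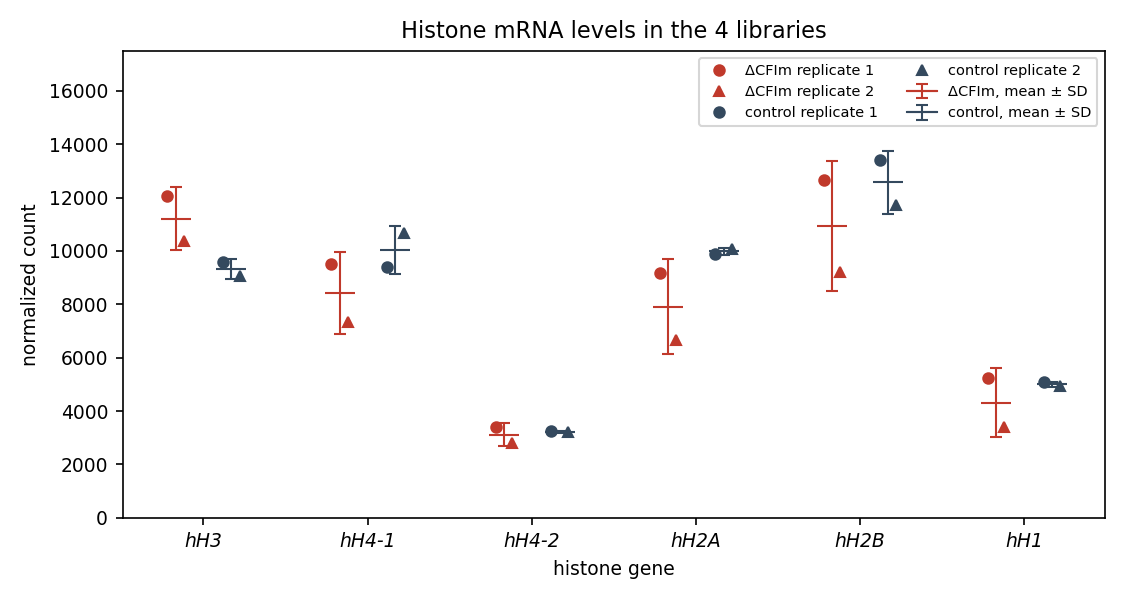
Normalized counts of the 6 tested histone genes in each library, with ΔCFIm in red to the left of control in dark blue (circles, replicate 1; triangles, replicate 2; crosses with bars, mean ± SD). The genotypes separate for *hH3* (12040 and 10390 in ΔCFIm against 9581 and 9064 in controls) and *hH2A*, and ΔCFIm replicate 2 lies below replicate 1 for every gene.

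The duplicate ΔCFIm libraries differed in all 6 tested histone genes in the same direction, which was also the direction of 62.2% of all tested genes. ΔCFIm replicate 2 was below ΔCFIm replicate 1 by log2 ratios between -0.61 (*hH1*) and -0.21 (*hH3*), with a median of -0.42. Across all 6949 tested genes the median log2 ratio of these libraries was -0.10, and 17.6% of the genes were at or below the histone median. Among the 946 tested genes that averaged 1000 normalized counts or more, the median was -0.02. Of these, 53.0% were lower in replicate 2 and 11.7% were at or below the histone median. In controls, replicate 2 over replicate 1 gave log2 ratios from -0.19 (*hH2B*) to 0.18 (*hH4-1*) with a median of -0.03 for the histone genes, and a median of -0.0027 for all tested genes. The SD of this ratio over all tested genes was 0.39 in ΔCFIm and 0.32 in controls.

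The summed level of the 7 histone genes shows the same gap. It was 52034 and 39832 normalized counts in ΔCFIm, against 50602 and 49695 in controls. These sums were 0.889% and 0.681% of all reads on genes with a deposited value in ΔCFIm, and 0.865% and 0.849% in controls. ΔCFIm replicate 1 had the highest sum of the 4 libraries and replicate 2 the lowest. The hydrophobin gene *eas*, which is expressed as conidia form, was also highest in ΔCFIm replicate 1 and lowest in ΔCFIm replicate 2, with 611475 and 545275 normalized counts in ΔCFIm and 562943 and 584252 in controls, and its part in the histone values was not tested.

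**Figure D3:**
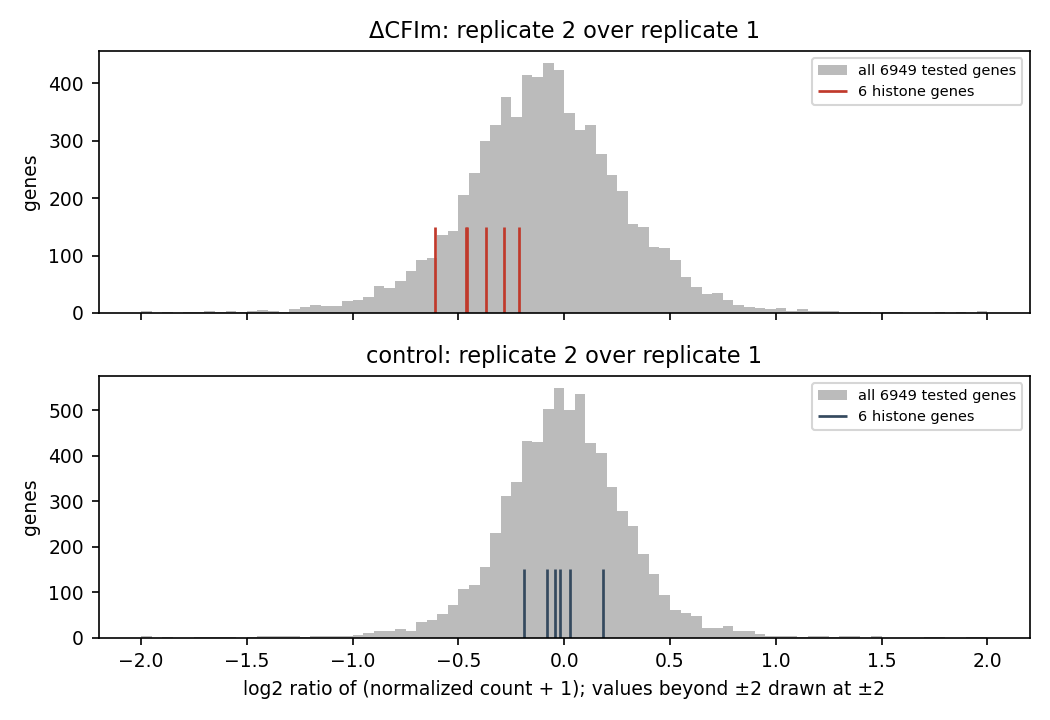
Log2 ratio of replicate 2 over replicate 1 for all 6949 tested genes (grey, number of genes per bin) in ΔCFIm (upper panel) and control (lower panel), with the 6 tested histone genes as colored lines. In ΔCFIm all 6 lines lie between -0.61 and -0.21, and in controls they lie between -0.19 and 0.18.

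A ratio of histone mRNAs within a library is not affected by the scaling between libraries. The ratio of H4 mRNA (*hH4-1* plus *hH4-2*) to *hH3* mRNA was 1.07 and 0.977 in ΔCFIm, against 1.32 and 1.53 in controls. Its means were 1.02 ± 0.0682 in ΔCFIm and 1.43 ± 0.150 in controls (SD, n = 2 each), so the genotypes were separated by more than the spread of either. The ratio of *hH2A* to *hH3* was likewise lower in both ΔCFIm libraries, at 0.763 and 0.640, against 1.03 and 1.11 in controls. With 2 libraries in each genotype the smallest two-sided p of an exact permutation test is 0.333, which is the p of each of these ratios, and the ratios were chosen after the values of the genes had been seen.

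Ratios that leave out *hH3* differed less between the genotypes. The ratio of *hH2A* to *hH2B*, the partners in a dimer, was 0.725 and 0.722 in ΔCFIm, against 0.738 and 0.859 in controls. That of *hH1* to *hH2A* was 0.569 and 0.513 in ΔCFIm, against 0.513 and 0.489 in controls. In both ratios the nearest libraries of the 2 genotypes were closer to each other than the control libraries were to each other.

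**Figure D4:**
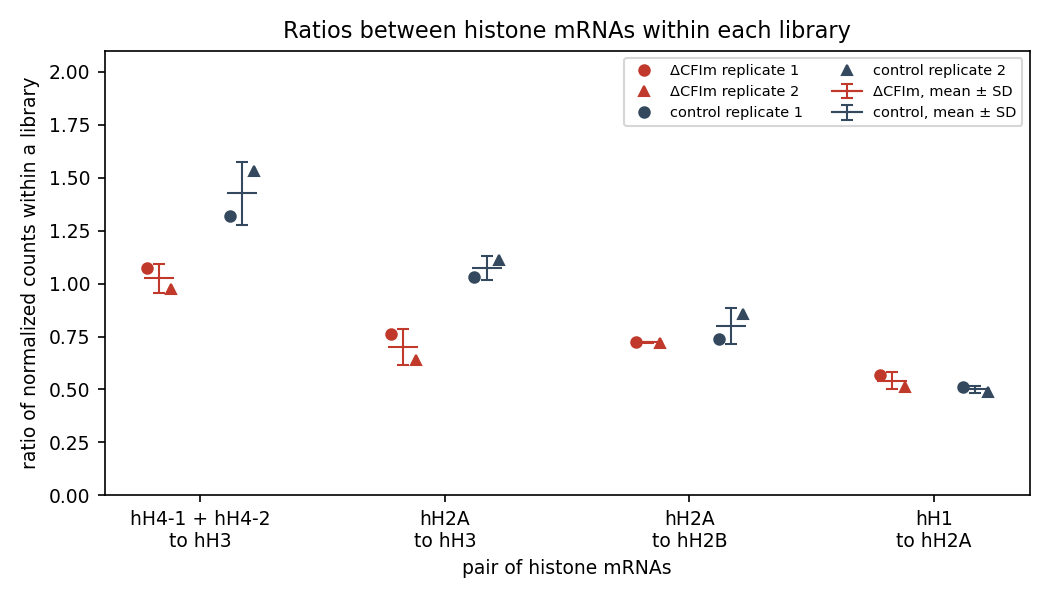
Ratios of normalized counts between histone mRNAs within each library, with ΔCFIm in red to the left of control in dark blue (circles, replicate 1; triangles, replicate 2; crosses with bars, mean ± SD). The H4 to *hH3* ratio is 1.07 and 0.977 in ΔCFIm and 1.32 and 1.53 in controls, and the *hH2A* to *hH2B* ratio lies between 0.722 and 0.859 in the 4 libraries.

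The variant gene *hH2Az* (NCU05347, linkage group II, 1387651 to 1392823) had almost no reads in either genotype. It had 1 and 6 reads in ΔCFIm (95% exact Poisson intervals 0.0253 to 5.57 and 2.20 to 13.1) and 3 and 2 reads in controls (0.619 to 8.77 and 0.242 to 7.22). Only ΔCFIm replicate 2 was above the floor of 3 reads, and no difference between the genotypes was detectable at this depth. The gene model is 5173 bp with 3 RefSeq transcripts, longer than the 1248 to 2129 bp of the other 6 genes. The NCU05346 gene (1387878 to 1389833) lies wholly inside it, over 37.8% of its length. NCU05345 (1385790 to 1387816) overlaps 166 bp at the end with the lower coordinates, and the strands were not compared. NCU05346 had 10.9 and 31.0 normalized counts in ΔCFIm, against 30.5 and 20.3 in controls. A read in a region shared by genes can be left uncounted or given to the other gene. The libraries were strand-specific, but the strand setting of the counting is not given in the sources used here. The *hH2Az* values are therefore uncertain as a measure of its mRNA.

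Other histone gene models also overlap a neighbour. The model of *hH2A* shares 369 bp with NCU11258, that of *hH2B* shares 483 bp with NCU02434, and that of *hH4-2* shares 167 bp with NCU11174, whereas *hH3*, *hH4-1* and *hH1* overlap none of the annotated genes next to them. NCU11258 had 1016 and 815 normalized counts in ΔCFIm, against 918 and 992 in controls. NCU02434 had 201 and 170 in ΔCFIm, against 204 and 246 in controls. NCU11174 had 175 and 157 in ΔCFIm, against 194 and 196 in controls. These neighbours had far fewer reads than the histone genes, and none passed the limma threshold (log2 fold changes between -0.28 and -0.07, adjusted p between 0.446 and 0.862).

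The gene next to *hH3*, NCU01636, ends 168 bp before the *hH3* model. It had 1965 and 1521 normalized counts in ΔCFIm, against 1523 and 1105 in controls, a log2 fold change of 0.41 (limma adjusted p = 0.248, SE 0.20). NCU00213, on the other side of *hH4-2*, had 130 and 128 in ΔCFIm and 176 and 159 in controls (log2 fold change -0.37, adjusted p = 0.288 from limma). NCU06862, next to *hH1*, had a log2 fold change of 0.01, and NCU16562, next to *hH4-1*, had 0 reads in all 4 libraries.

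The remaining annotated histone genes had far lower normalized counts than the 6 tested histone genes. The *hH3v* gene (NCU00145) had 109 and 83.9 normalized counts in ΔCFIm, against 86.1 and 88.0 in controls. The *hH4v* gene (NCU04338) had 386 and 433 in ΔCFIm, against 489 and 445 in controls. Neither passed the limma threshold, with log2 fold changes of 0.13 (adjusted p = 0.785) and -0.19 (adjusted p = 0.574). The ratio of *hH3v* to *hH3* was 0.00903 and 0.00807 in ΔCFIm, against 0.00899 and 0.00971 in controls.

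Histone chaperones carry histones and load them onto DNA. Of 7 such genes, 0 passed the limma threshold, as did 8% of all tested genes. The unadjusted p from limma was under 0.05 for 1 of the 7, and for 22.5% of all tested genes. A list of 7 genes is too short to tell these counts from those shares. The median log2 fold change was 0.11, against -0.01 for all tested genes. The largest change in the list was in *chz-1* (NCU01740), annotated as a chaperone of H2A.Z, with 1009 and 1055 normalized counts in ΔCFIm, against 1350 and 1360 in controls (log2 fold change -0.39, limma adjusted p = 0.171, SE 0.16). Both ΔCFIm values were below both control values, as for 26.5% of all tested genes. The next largest was in *cac-3* (NCU06679), with a log2 fold change of 0.24 (adjusted p = 0.480 from limma). The other chaperones were *cac-1*, *cac-2*, *nap-1*, *asf-1* and the nucleosome assembly protein NCU01438, with log2 fold changes between -0.04 (*cac-2*) and 0.15 (*asf-1*).

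Core histones are made mainly while DNA is copied, so 5 DNA replication genes were examined as well. Of these, 1 rose and 0 fell at the limma threshold, beside 4.62% higher and 3.38% lower over all tested genes. The unadjusted p from limma was under 0.05 for 2 of the 5, and for 22.5% of all tested genes. The *pcn* gene (NCU09239), which by its symbol encodes the sliding clamp PCNA, had 696 and 525 normalized counts in ΔCFIm, against 344 and 361 in controls (log2 fold change 0.78, limma adjusted p = 0.0223, SE 0.19). Both ΔCFIm values were above both control values, as for 25.9% of all tested genes. The call was lost without ΔCFIm replicate 1 (adjusted p = 0.0536), without control replicate 1 (0.0990) and without control replicate 2 (0.0684), and with eBayes fitted without a trend (0.0721), while the log2 fold change stayed between 0.57 and 0.98.

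The small subunit gene of ribonucleoside-diphosphate reductase (NCU07887), an enzyme that makes deoxynucleotides, had 680 and 668 normalized counts in ΔCFIm, against 983 and 1020 in controls. Its log2 fold change was -0.57 (SE 0.16) and its adjusted p from limma was 0.0514, just outside the threshold. It was 0.0439 with edgeR and 0.0499 with DESeq2, but 0.112 from limma with eBayes fitted without a trend. Over all alternatives and with each library left out, the log2 fold change stayed between -0.61 and -0.54. The other replication genes, *pold-1*, *mcm7* and the DNA polymerase epsilon subunit C gene NCU06405, had log2 fold changes of 0.09, 0.10 and -0.22 and did not pass.

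Of 7 genes for mRNA 3′ end processing and poly(A) binding, with the deleted genes left out, 0 passed the limma threshold, beside 8% of all tested genes. The unadjusted p from limma was under 0.05 for 1 of the 7, and for 22.5% of all tested genes. The median log2 fold change was 0.06. The gene closest to the threshold was *pub1* (NCU07874), annotated as a polyadenylated RNA-binding protein, with 977 and 806 normalized counts in ΔCFIm, against 540 and 629 in controls (log2 fold change 0.61, limma adjusted p = 0.0568, SE 0.18, 0.0357 with edgeR and 0.0493 with DESeq2). With eBayes fitted without a trend, the adjusted p of *pub1* from limma was 0.130. Over all alternatives and with each library left out, its log2 fold change stayed between 0.47 and 0.74. The other 6 had log2 fold changes between -0.11 (*nab2*) and 0.13 (*fip-1*). These lists hold the genes that a symbol or a product name identified, and they are not complete.

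The 3 tested genes with the profile over the 4 libraries most like the mean histone profile were NCU07879, NCU06204 and NCU00400, with root mean square distances of 0.0073, 0.0128 and 0.0132 on the log2 scale after centring each gene on its mean. NCU07879 had 282 and 213 normalized counts in ΔCFIm, and 269.9 and 269.7 in controls. Like the mean of the histone genes, for which they were picked, these 3 were lowest in ΔCFIm replicate 2 and had similar values in the other 3 libraries. NCU00400 had only 23.7 and 18.0 normalized counts in ΔCFIm, and 23.1 and 23.2 in controls, so its likeness rests on a few reads. The histone genes themselves lay at distances of 0.0600 (*hH4-2*) to 0.216 (*hH3*) from their own mean profile, with *hH3* the least like the others.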

How the data were processed

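Libraries (Lexogen QuantSeq 3′ REV, 75 bp single-end) from 2 ΔCFIm and 2 control cultures were grouped by their titles. The authors checked reads with FastQC, aligned them to NC12 with STAR, counted reads per gene with HTSeq, and scaled by library size. The deposited signal is thus a normalized count per gene, with no pooling of replicates. The value of 1 read was the smallest value above 0 in each library, and 100% of values were whole multiples of it (within a millionth of a read), which gave back the reads.

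Genes that averaged 10 or more normalized counts were compared on log2(normalized count + 1) with limma 3.58.1 (trended eBayes, R 4.3.3), which understates changes of low genes, with Benjamini-Hochberg adjustment over the 6949 genes and a threshold of 0.05. The recovered reads were also tested with edgeR 4.0.16 and DESeq2 1.42.0.

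Names and coordinates come from RefSeq (NC12), which matched 7792 of 7793 genes. It gives no product names, so gene lists were taken by symbol and by names in the study's text and tables. The genes named were the histone genes, the deleted genes, *matA-1* and *eas*, annotated neighbours, the 3 nearest profiles, and in each list every called gene or otherwise up to 3 with the largest change, then the rest of each list. The members and lists were chosen with earlier results of these data known. The paper shows *hH2B* as an example of a gene with more poly(A) peaks in ΔCFIm than in controls. Poly(A) peak positions were not analysed here, and their bearing on the counts per gene was not tested.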

Additional observations from a re-analysis of the deposited data

How the results depend on the processing

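The log2 fold changes of the 6 tested histone genes kept their direction and stayed outside the threshold in all 60 values from 10 alternatives: pseudocounts of 0.1 and 5, no filter on the mean (genes with at least 1 read), a stricter minimum mean of 50, the replicate block, untrended eBayes, edgeR, DESeq2, and scaling by quantiles or by median ratios. With 1 library left out at a time, 19 of 24 values did so. They ranged from 0.16 to 0.37 for *hH3*, from -0.45 to -0.08 for *hH4-1*, from -0.20 to 0.0853 for *hH4-2*, from -0.59 to -0.12 for *hH2A*, from -0.44 to 0.0147 for *hH2B* and from -0.55 to 0.0633 for *hH1*. Without ΔCFIm replicate 2, *hH4-2* (0.0853), *hH2B* (0.0147) and *hH1* (0.0633) changed sign. Between 0 and 2 histone genes passed, the 2 being *hH2A* and *hH1* without ΔCFIm replicate 1, where the lone ΔCFIm library was assumed to vary like the controls.

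Over all tested genes, 556 passed, and between 333 (without control replicate 2) and 1132 (without ΔCFIm replicate 2) with 1 library left out. With the replicate number as a block, 890 passed (506 higher and 384 lower). The labels do not say what a shared number stands for, and deviations of libraries with the same number had a Pearson's r of 0.137 across the tested genes. The block changed no call of a histone gene (lowest adjusted p = 0.222, *hH2A*). It brought the ribonucleoside-diphosphate reductase gene and *pub1* past the threshold (adjusted p = 0.0205 and 0.0246 from limma), as did median-of-ratios scaling (0.0453 and 0.0441). Untrended eBayes took both genes farther from the threshold (adjusted p = 0.112 and 0.130 from limma). The block and untrended eBayes left the log2 fold changes of these genes at -0.57 and 0.61, and their SE moved. The SE of the reductase gene was 0.148 with the block and 0.177 untrended, against 0.164 in the main fit. That of *pub1* was 0.163 and 0.198, against 0.179. With median-of-ratios scaling the log2 fold changes were also -0.57 and 0.61, and 642 genes passed. The cause of the move with that scaling was not tested. With 2 libraries per genotype, the SE of a histone gene was 0.18 to 0.21 on the log2 scale.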
